A study of Homo sapiens with 6 samples.

Results

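Immediate early genes were examined in RNA-seq libraries of HepG2 cells that carried either the wild-type or a sugar-deficient form of the transcription factor VEZF1. The set holds FOS, FOSB, FOSL1, JUN, JUNB, EGR1, IER2, IER3, DUSP1 and KLF6, chosen by name because their mRNAs follow serum and the handling of cells at harvest. All 10 were found among the 59608 genes of the count table, and all 10 had enough counts to be tested. HepG2 cells are a long-used line from a human liver tumour. In both groups a lentivirus-encoded sgRNA had been directed against endogenous VEZF1, after which VEZF1 was expressed again, as wild type in the VEZF1-WT group (3 libraries) and with its glycosylated serines replaced by alanine in the VEZF1-2A group (3 libraries). The study's methods describe adenoviruses for the re-expressed forms and culture of HepG2 in DMEM with fetal bovine serum. Neither the time since the last change of medium nor the way the cells were harvested is given in the labels, and they do not say whether the libraries of a group came from separate cultures or from 1 clone. Hence p-values measure the spread between these libraries, which may be technical.

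Immediate early genes are switched on by growth factors, serum or stress without the need for new protein. Kinases of the ERK pathway activate ternary complex factors that sit with SRF on CArG boxes, while CREB and related factors act through the CRE, and the resulting mRNAs are made in bursts and quickly degraded. FOS-family and JUN-family proteins pair to form AP-1, EGR1 and KLF6 are zinc finger factors, and DUSP1 removes the phosphates that activate MAP kinases. In hepatocytes several of these genes respond to partial hepatectomy and to the isolation of the cells.

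The VEZF1-WT libraries held 47414775, 35272710 and 57199396 counts in replicates 1, 2 and 3, and the VEZF1-2A libraries held 28756765, 39565464 and 33966492. The immediate early genes together took 0.0395%, 0.0458% and 0.0369% of the counts in VEZF1-WT, against 0.0455%, 0.0428% and 0.0376% in VEZF1-2A, so the groups overlapped. Levels of 1 gene between libraries are given below as CPM, its share of a library's counts after TMM scaling. Levels between genes are given as TPM, which also divides by the exonic length in the table.

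VEZF1 itself, the targeted gene, had 59.3, 45.6 and 40 CPM in VEZF1-WT and 46.2, 48.6 and 38.9 CPM in VEZF1-2A. Both groups were given a re-expressed form, whose reads would be counted with those of the endogenous gene. The 2 sources were not separated here, so this count does not check the labels. All 10 hepatocyte and HepG2 markers examined were detected, led by ALB with a mean of 2332 TPM over the 6 libraries. Summed CPM of these markers was 16259, 16156 and 20540 in VEZF1-WT against 15455, 18767 and 19954 in VEZF1-2A. Replicate 3 stood apart from replicates 1 and 2 in both groups. Chi-square over its degrees of freedom, on halved counts, was 8.57 to 13.87 for the 4 pairs of libraries of a group that include replicate 3 and 3.47 and 4.32 for the 2 pairs without it. AFP, the fetal counterpart of albumin, had 1928, 2043 and 3643 CPM in VEZF1-WT and 1763, 2065 and 3482 CPM in VEZF1-2A, and FGB, a fibrinogen chain, was likewise highest in replicate 3 of each group. Hence the comparison is also given without replicate 3 of both groups. Markers of fibroblasts summed to between 1.71 and 3.47 CPM per library and those of endothelial cells to between 2.32 and 4.35 CPM. Their most abundant genes per length were PDGFRB and PECAM1, and LUM had 0 counts in every library. Among leukocyte markers LYZ (mean 819 TPM) and CD68, which shares exonic bases with AC016876.3, were high, and their sum ran from 657 to 776 CPM, whereas PTPRC, which all leukocytes express, had a mean of 0.0691 CPM. In bulk RNA, fewer cells that express a gene and less RNA of it per cell cannot be told apart.

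Per exonic length, IER3 was the most abundant immediate early gene in these cells, and FOS and FOSB were close to the lower end of the genes tested. IER3 had 196 ± 19.8 TPM (SD over 6 libraries), above 96.8% of the tested genes by mean. JUN followed with 88 ± 11.6 TPM and FOSL1 with 53.7 ± 11.1 TPM. DUSP1 had 41.5 ± 4.27 TPM, KLF6 34 ± 2.15 TPM and IER2 18.3 ± 1.81 TPM. EGR1 had 8.75 ± 1.13 TPM and JUNB 6.98 ± 0.735 TPM. The order from IER3 down to JUNB was the same in all 6 libraries, although the ranges of FOSL1 and DUSP1 overlapped, as did those of EGR1 and JUNB. Below JUNB the level dropped 20.5-fold, to 0.341 ± 0.0717 TPM for FOSB and 0.325 ± 0.0886 TPM for FOS. FOSB exceeded FOS in 4 of 6 libraries, a difference smaller than the spread of either gene. The levels of JUNB, IER2 and IER3, and so the step below JUNB, are uncertain, since these genes share exonic bases with genes of the other strand, whose counts were 386% of those of JUNB (HOOK2), 73.5% of those of IER2 (AC011446.2) and 43.6% of those of IER3 (IER3-AS1).

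**Figure D1:**
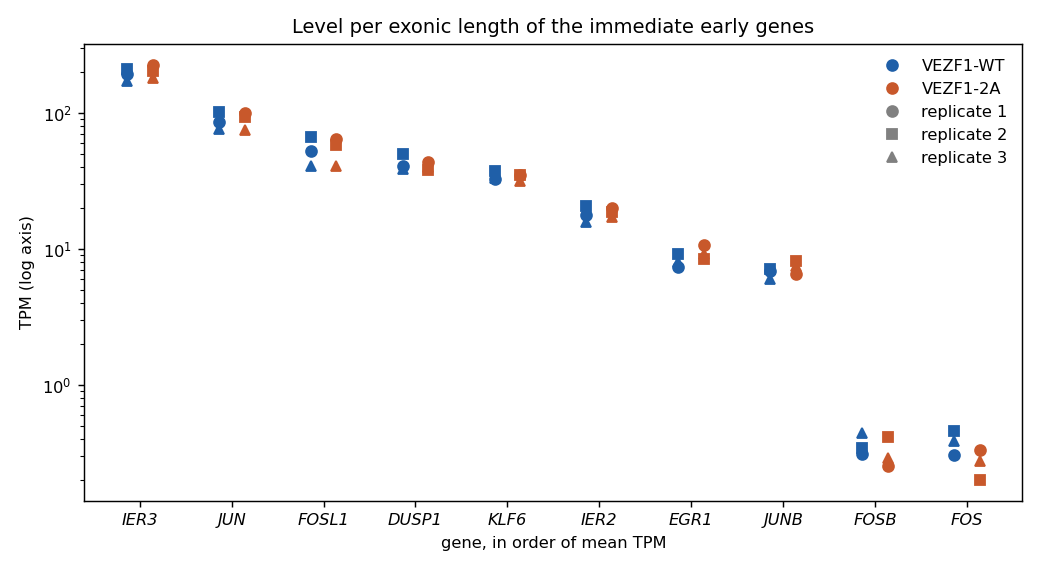
Level of each immediate early gene per exonic length, in TPM on a log axis, with genes in order of their mean. Each point is 1 library, coloured by group and shaped by replicate number. IER3 stands at the top (170 to 225 TPM), FOSB and FOS lie below 0.5 TPM, and the colours mix in every column.

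The bases just before the transcription start were searched for elements through which immediate early genes are known to be switched on. Sequences are RefSeq promoters of GRCh38.p14, at hand for 8 of the 10 genes (FOSL1 and IER3 have no entry), and 4 are printed as examples of the elements found. Capitals mark CArG boxes and matches to TGACG or CGTCA, the core of the CRE, and each run ends at the base before the start site. EGR1 lies at chr5:138465329-138465478 on the plus strand, FOS at chr14:75278678-75278827 on the plus strand, JUN at chr1:58784048-58784197 on the minus strand and DUSP1 at chr5:172771196-172771345 on the minus strand.
EGR1: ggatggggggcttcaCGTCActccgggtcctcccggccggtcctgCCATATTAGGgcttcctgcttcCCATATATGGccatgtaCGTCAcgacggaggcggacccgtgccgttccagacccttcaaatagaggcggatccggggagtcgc
FOS: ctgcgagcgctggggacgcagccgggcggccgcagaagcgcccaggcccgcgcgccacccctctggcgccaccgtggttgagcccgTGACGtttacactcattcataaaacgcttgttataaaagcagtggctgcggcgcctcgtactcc
JUN: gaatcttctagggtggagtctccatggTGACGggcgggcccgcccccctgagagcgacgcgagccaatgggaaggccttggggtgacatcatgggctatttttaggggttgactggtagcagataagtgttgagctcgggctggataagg
DUSP1: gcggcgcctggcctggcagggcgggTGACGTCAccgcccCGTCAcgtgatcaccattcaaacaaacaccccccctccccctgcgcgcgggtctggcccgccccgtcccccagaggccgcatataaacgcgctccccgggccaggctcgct

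In EGR1 the CArG boxes run from base -105 to -96 and from -83 to -74, counted from the start site. Of the promoters of all RefSeq genes searched over the same 250 bases before the start (35114), 1.16% held a CArG box on either strand, and of the 8 immediate early genes only EGR1 did. TGACG, searched on both strands, was present in 7 of the 8 (all but KLF6) and in 21.2% of all promoters. The full CRE TGACGTCA, which contains it, occurred in DUSP1 alone and in 1.65% of all promoters. None of the 8 held TGACTCA, the AP-1 element, which 4.2% of all promoters did. Only exact letters were searched, so a near match such as TGACATCA in the JUN run is neither marked nor counted. TATAAA, also on either strand, stood in DUSP1, FOS, FOSB and JUNB and in 10.7% of all promoters. VEZF1 is known to bind runs of G, and GGGGNGGGG on either strand was present in DUSP1, IER2, JUNB and KLF6, that is 4 of the 8, and in 24.2% of all promoters. A match describes the letters and is no evidence of binding, and no match says only that these letters are not in this window.

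No immediate early gene differed between VEZF1-WT and VEZF1-2A beyond the spread between libraries. Of the 10, 0 had an adjusted p under 0.05, and all 10 stood at 0.9996 (quasi-likelihood test of edgeR, adjusted by Benjamini-Hochberg over the 19111 genes tested). Of all genes tested 0% passed, and 408 had an unadjusted p under 0.05, or 973 without replicate 3 of VEZF1-2A. DESeq2 called 3 genes and limma voom 0, none of them an immediate early gene. At an unadjusted p under 0.05 there were also 0 of 10, beside 2.13% of all genes tested, 0.832% higher and 1.3% lower in VEZF1-WT. In 0 of 10 did the libraries of the groups separate without overlap, beside 7.36% of all genes tested, 3.5% higher and 3.86% lower in VEZF1-WT. Leaving out 1 library brought these counts to at most 1 (EGR1, without replicate 2 of VEZF1-2A) and 2 (FOS and JUNB without replicate 1 of VEZF1-2A, EGR1 and IER2 without replicate 2 of VEZF1-WT, EGR1 and FOSB without replicate 2 of VEZF1-2A). Of all genes tested, 16.3%, 15.5% and 15.3% separated in these 3 settings, and 1.78% had an unadjusted p under 0.05 without replicate 2 of VEZF1-2A. The median log2 fold change of the 10 genes, VEZF1-WT over VEZF1-2A, was -0.04, beside 0.00 over all genes. Leaving out 1 library moved it to -0.14 (replicate 2 of VEZF1-WT) or -0.11 (replicate 3 of VEZF1-2A) and turned its sign to 0.016 (replicate 3 of VEZF1-WT) or 0.026 (replicate 1 of VEZF1-2A). Without replicate 3 of both groups the median was -0.05, 0 of 10 had an unadjusted p under 0.05 and in 0 of 10 did the groups separate, beside 33.3% of the genes tested in these 4 libraries, of which 4 had an adjusted p under 0.05 and 833 an unadjusted p under 0.05. With all libraries the fold change lay above 0 for 4 genes and below 0 for 6, beside 49.9% of all genes below 0. The median size of the log2 fold change, regardless of sign, was 0.089 in the set and 0.074 over all genes.

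**Figure D2:**
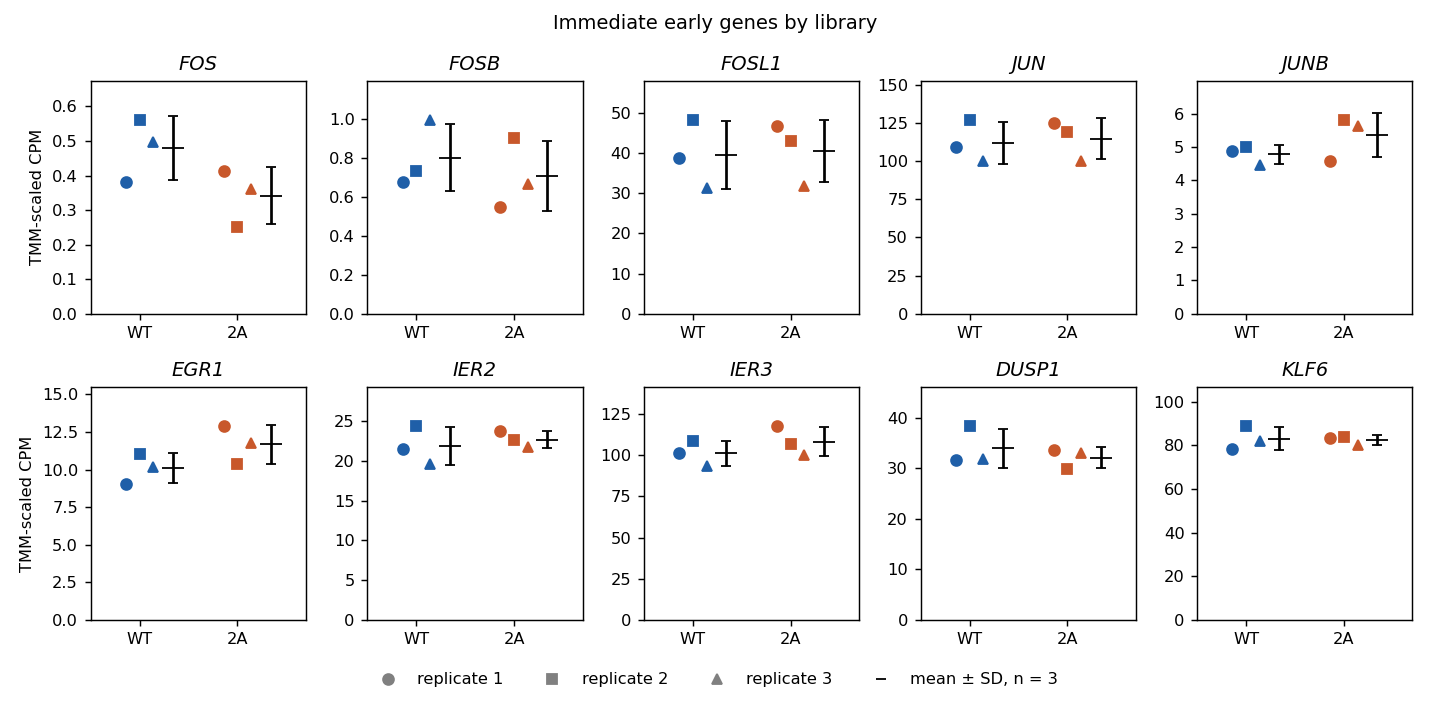
CPM after TMM scaling of each immediate early gene, with 1 panel per gene and an axis from 0. Points are libraries, shaped by replicate number, and the bar gives the mean and SD of 3 libraries. In every panel the points of VEZF1-WT and VEZF1-2A overlap.

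Positions below are those of the gene in the count table, on GRCh38. FOS, FOSB and FOSL1 encode the FOS-family subunits of AP-1. FOS (chr14:75278826-75282230, plus strand), the prototype of the family, had 18, 20 and 28 raw counts in VEZF1-WT against 12, 10 and 12 in VEZF1-2A, or 0.38, 0.561 and 0.497 CPM against 0.412, 0.25 and 0.362 CPM. Replicate 1 of VEZF1-WT lay below replicate 1 of VEZF1-2A, so the groups overlapped. On the log2 scale the fold change was 0.50 (standard error 0.37, 95% interval -0.32 to 1.32, unadjusted p = 0.203 in edgeR), the farthest from 0 in the set and the widest interval. FOSB (chr19:45467995-45475179, plus strand), a FOS relative also known from neurons, had 32, 26 and 56 raw counts in VEZF1-WT against 16, 36 and 22 in VEZF1-2A, or 0.676, 0.73 and 0.994 CPM against 0.549, 0.899 and 0.664 CPM. The highest value was in VEZF1-WT (replicate 3) and the lowest in VEZF1-2A (replicate 1), and the groups overlapped. Its log2 fold change was 0.18 (95% interval -0.49 to 0.85). Every raw count of both genes was an even number, as were 81% to 83% of the counts from 1 to 10 in each library. Whether reads or fragments were counted is not given in the sources used here.

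FOSL1 (chr11:65892049-65900573, minus strand), which encodes FRA-1 and is made later and for longer than FOS, had 38.7, 48.4 and 31.4 CPM in VEZF1-WT and 46.9, 43 and 31.9 CPM in VEZF1-2A. Replicate 3 was the lowest in each group, and the range within a group far exceeded the difference of the means. The log2 fold change was -0.04 (95% interval -0.40 to 0.32). Among the 4 FOS-family genes, with FOSL2 counted in, FOSL1 took between 83.5% and 85.6% of the summed TPM in a library and FOSL2 between 13.7% and 15.4%. FOS took between 0.292% and 0.783% and FOSB between 0.341% and 0.898%. The share of FOSL1 was 84.3% ± 0.759 in VEZF1-WT, against 84.6% ± 1.05 in VEZF1-2A (both SD, n = 3).

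JUN and JUNB encode the partners of the FOS proteins, and JUN is phosphorylated by JNK under stress. JUN (chr1:58780791-58784047, minus strand) had 109, 127 and 99.9 CPM in VEZF1-WT and 125.3, 119 and 99.8 CPM in VEZF1-2A. The lowest value of each group was that of replicate 3, and these lowest values were nearly equal. Its log2 fold change was -0.04 (95% interval -0.26 to 0.19, unadjusted p = 0.736 in edgeR). JUNB (chr19:12791486-12793315, plus strand), a weaker activator that can oppose JUN, had 4.88, 5 and 4.47 CPM in VEZF1-WT and 4.6, 5.82 and 5.64 CPM in VEZF1-2A. Replicate 1 of VEZF1-2A fell among the VEZF1-WT values, and the log2 fold change was -0.17 (95% interval -0.46 to 0.12, unadjusted p = 0.218). JUNB shares 259 exonic bases with HOOK2 on the other strand, whose counts were 386% of its own, so its level is uncertain without knowledge of the strand setting. Of the summed TPM of JUN, JUNB and JUND, JUN took between 54.9% and 64.2% in a library, JUND between 31.3% and 39.9%, and JUNB between 4.01% and 5.52%.

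EGR1 (chr5:138465479-138469303, plus strand), whose protein binds GC-rich sites, had 9.04, 11 and 10.2 CPM in VEZF1-WT and 12.9, 10.3 and 11.8 CPM in VEZF1-2A. Replicate 2 of VEZF1-2A lay below replicate 2 of VEZF1-WT. This gene had the smallest unadjusted p of the set, 0.0922 in edgeR, with a log2 fold change of -0.21 (standard error 0.11, 95% interval -0.46 to 0.04). A two-sided exact permutation test gave p = 0.2, where 3 libraries against 3 cannot give less than 0.1. Of all genes tested, 19.4% had a log2 fold change farther from 0. The unadjusted p of EGR1 fell under 0.05 (0.0366) when replicate 2 of VEZF1-2A was left out, with an adjusted p of 1. Within its family, EGR1 took between 88.2% and 94.5% of the summed TPM, EGR3 most of the remainder, and EGR2 and EGR4 had too few counts to be tested. KLF6 (chr10:3775996-3785281, minus strand), a zinc finger factor of the Krüppel-like family and a known tumour suppressor, had 78.3, 88.9 and 82.2 CPM in VEZF1-WT and 83.4, 84.1 and 80 CPM in VEZF1-2A. All 3 VEZF1-2A values fell within the range of VEZF1-WT, and the interval of its log2 fold change was the narrowest of the set, from -0.13 to 0.15 around 0.01.

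IER2 encodes a nuclear protein and IER3 a short-lived stress protein that modulates cell survival. IER2 (chr19:13150411-13154911, plus strand) had 21.5, 24.4 and 19.6 CPM in VEZF1-WT and 23.7, 22.6 and 21.7 CPM in VEZF1-2A, again within the range of the other group, with a log2 fold change of -0.06 (95% interval -0.26 to 0.14). IER3 (chr6:30743199-30744548, minus strand) had 101, 109 and 93.5 CPM in VEZF1-WT and 118, 107 and 100.4 CPM in VEZF1-2A. Replicate 3 of each group was its lowest, and the log2 fold change was -0.10 (95% interval -0.27 to 0.07, unadjusted p = 0.223 in edgeR). Both genes share exonic bases with genes of the other strand, IER2 with AC011446.2 (counts at 73.5% of its own) and AC011446.3, and IER3 with IER3-AS1 (43.6%) and HCG20 (32.1%). DUSP1 (chr5:172768096-172771195, minus strand), the phosphatase that ends MAP kinase signalling, had 31.7, 38.4 and 31.8 CPM in VEZF1-WT and 33.6, 29.8 and 33.1 CPM in VEZF1-2A. Replicate 2 was the highest in VEZF1-WT and the lowest in VEZF1-2A, with a log2 fold change of 0.08 (95% interval -0.12 to 0.27). The 4 genes with a G-run before the start site, DUSP1, IER2, JUNB and KLF6, thus had log2 fold changes of 0.08, -0.06, -0.17 and 0.01.

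**Figure D3:**
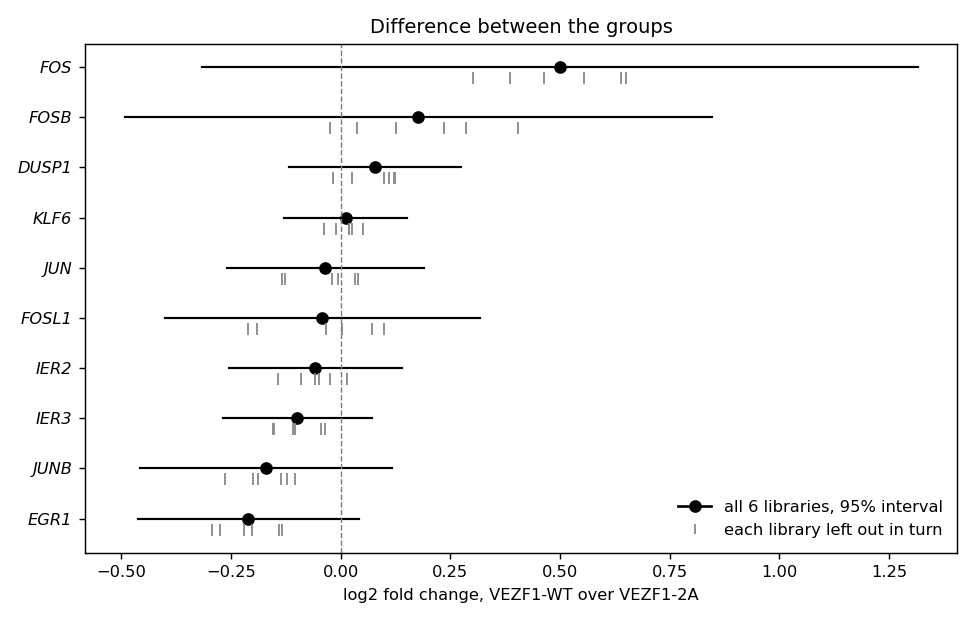
Log2 fold change of each immediate early gene, VEZF1-WT over VEZF1-2A, with 95% intervals from the edgeR fit (dots and lines) and the values with each library left out in turn (grey ticks). Every interval includes 0, and those of FOS and FOSB are the widest.

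Differences between single libraries ran across the groups. Replicate 2 of VEZF1-WT had the highest CPM in 6 of the 10 genes (FOS, FOSL1, JUN, IER2, DUSP1 and KLF6), and replicate 1 of VEZF1-2A in 2 (EGR1 and IER3). Replicate 3 of VEZF1-WT was lowest in 4 (FOSL1, JUNB, IER2 and IER3) and highest in FOSB. The summed CPM of the set was 396, 453 and 375 in VEZF1-WT against 449, 423 and 385 in VEZF1-2A, with replicate 3 the lowest in each group. Summed CPM of 10 proliferation genes was 2058, 1747 and 1988 in VEZF1-WT against 1807, 1752 and 2088 in VEZF1-2A. The 3 libraries with the highest sum of immediate early genes therefore had the 3 lowest sums of proliferation genes. In the list 8 of 10 genes, TOP2A and MKI67 among them, were lower in each of those 3 libraries than in any other. CCND1, the most abundant of the list per length, was higher in each of them, with 404, 442 and 376 CPM in VEZF1-WT and 442, 444 and 385 CPM in VEZF1-2A. The same 3 libraries had the highest sums of 10 feedback inhibitors of ERK signalling, at 339, 381 and 315 CPM in VEZF1-WT and 391, 394 and 342 CPM in VEZF1-2A. They had the highest sums of 17 other immediate early effectors (1146, 1262 and 1118 CPM in VEZF1-WT, 1251, 1213 and 1124 CPM in VEZF1-2A). So it was for 11 other immediate early transcription factors and, narrowly, for 10 further AP-1 subunits and partners. The latter summed to 189.6 CPM in replicate 1 of VEZF1-2A, beside 189.4 CPM in replicate 3 of that group. The 10 heat shock genes summed lowest there, at 13166, 12269 and 12674 CPM in VEZF1-WT and 12106, 11551 and 12837 CPM in VEZF1-2A. HSP90AA1 made up most of each sum, with 7622.5, 6821 and 7137 CPM in VEZF1-WT and 6752, 6365 and 7419 CPM in VEZF1-2A. HSPD1 and HSPE1 followed the same order, and the other genes of the list did not. HSPA1A and HSPA1B were highest in replicate 2 of VEZF1-WT, and DNAJB1 and BAG3 in replicate 1 of VEZF1-2A. Sums of kinases and SRF complex genes did not split by these libraries. SRF targets of the cytoskeleton missed the split narrowly, with 6019 CPM in replicate 2 of VEZF1-2A beside 6036 CPM in replicate 1 of VEZF1-WT. Whether any of these lists had a part in the levels of the immediate early genes was not tested.

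FOSL1 varied most between libraries beyond what its abundance would give. Its biological coefficient of variation was 14.1%, against a trend of 7.7% at its level, and 1.55% of all genes tested had a larger ratio of the value to the trend. JUN had 9.46% against 7.46%. IER3 and DUSP1 lay just above their trends, and the other 6 genes lay below. Thus 4 of 10 immediate early genes exceeded the trend, beside 31.8% of all genes tested.

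**Figure D4:**
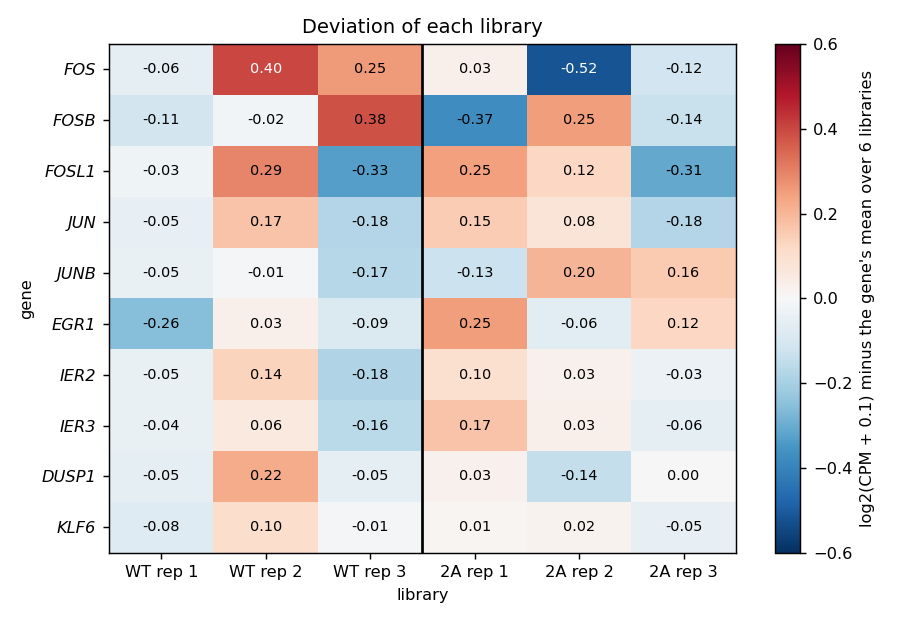
Deviation of each library (columns) from the gene's mean over 6 libraries, as log2(CPM + 0.1), for each immediate early gene (rows), with the black line between the groups. Replicate 2 of VEZF1-WT is above the mean for FOSL1 (0.29) and JUN (0.17), and replicate 3 of both groups is below it for the same genes.

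Among other genes of the same response no difference passed the test either. None of the 91 genes tested in 8 lists had an unadjusted p under 0.05 in edgeR, beside 2.13% of all genes tested. Without replicate 3 of VEZF1-2A 6 did, ERRFI1, SPRY4, ZFP36L1, NR4A1, CDK1 and TOP2A, beside 4.89% of all genes tested, and without replicate 2 of VEZF1-WT 1 did, SPRY4, beside 2.41%, with no adjusted p under 0.05. Without replicate 3 of both groups ERRFI1, ZFP36L1 and HSP90AA1 did, with an adjusted p of 0.99, beside 4.3% of all genes tested. In 5 of the 91 genes the libraries of the groups did not overlap, beside 7.36% of all genes tested. CNN2, HSPA8 and HSPH1 were the higher ones in VEZF1-WT, and CSRNP1 and MAPK8 the lower ones. Of 10 further AP-1 subunits and partners, all tested, the median log2 fold change was -0.03. The most abundant per length were JUND (-0.04), the JUN-family subunit that is expressed steadily, ATF2 (0.06), a partner of JUN, and MAFG (-0.07), a small MAF protein. Of 11 other immediate early transcription factors 7 were tested, with a median of 0.06. MYC, the growth regulator, had a log2 fold change of 0.02, KLF10 -0.11 and CSRNP1 -0.08. EGR2, EGR4, KLF2 and NR4A3 stayed under the count minimum.

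Of 17 other immediate early effectors 16 were tested, with 12 below 0 and a median of -0.03. GADD45A, a stress protein that restrains the cell cycle, had -0.03, PPP1R15A, which directs dephosphorylation of a translation factor, 0.03, and PHLDA1 -0.03. ARC, known from neurons, was too low to be tested. Of 10 feedback inhibitors of ERK signalling 9 were tested, with 7 below 0 and a median of -0.08. ERRFI1, which blocks the EGF receptor, had 145, 165 and 117 CPM in VEZF1-WT and 177, 175 and 130 CPM in VEZF1-2A, with replicate 3 again the lowest in each group. Its log2 fold change was -0.18 (unadjusted p = 0.216 in edgeR). DUSP6, the phosphatase of ERK, had a log2 fold change of -0.06 and SPRY4 one of -0.14. DUSP2 had 0 counts in every library, which allows up to 0.104 CPM in the smallest library, or 0.209 CPM if each fragment was counted as 2 reads, by counting error only.

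Upstream, all 18 kinases and SRF complex genes were tested, with a median of -0.02. RPS6KA3, a kinase downstream of ERK, had 0.04, MAP2K1, the kinase that activates ERK, 0.02, and SRF 0.05. SRF had 56.1, 60 and 54.6 CPM in VEZF1-WT and 56, 53.2 and 55.8 CPM in VEZF1-2A. Among 11 SRF targets of the cytoskeleton the median was 0.02, with ACTG1 (cytoplasmic gamma actin) at 0.04, MYH9 (a non-muscle myosin) at 0.00 and ACTB (beta actin) at 0.03. The 10 heat shock genes, which mark stress of the proteins in a cell, had a median of 0.05 with 8 above 0. HSP90AA1 had 0.07, HSPD1 0.03 and HSPA8 0.08. The 10 proliferation genes had a median of 0.04, with CCND1, a cyclin of the early cell cycle, at -0.06, TOP2A at 0.07 and PCNA at 0.02. MAFG, PHLDA1, DUSP6, MAP2K1 and HSPD1 share exonic bases with other genes whose counts were over 30% of their own.

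The genes whose levels followed the immediate early set most closely over the libraries were sought among 8750 genes outside the lists with a mean of at least 10 CPM. The 10 genes did not share 1 profile. Pearson's r of each with the mean of the others over 6 libraries was -0.48 for FOSB, -0.25 for JUNB, 0.03 for FOS and 0.26 for EGR1, and it ran from 0.59 for IER3 to 0.93 for KLF6 among the other 6. The mean deviation of the 10 genes was used, and Pearson's r over 6 libraries served as the measure of likeness, as a description only. FOS and FOSB, with the fewest counts, had the widest ranges on the log2 scale (0.92 and 0.75) and so weighed most in this mean. The 5 closest were SHISA5 (r = 0.997), TLN1 (r = 0.988), PIGG (r = 0.985), YIPF4 (r = 0.98) and PARD6B (r = 0.979). TLN1, which encodes the integrin adaptor talin, had 278, 299.7 and 277 CPM in VEZF1-WT and 289, 284 and 277 CPM in VEZF1-2A, so a small range lay behind the likeness. In all, 95 of the 8750 genes had an r above 0.9, and how many unrelated genes would reach this over 6 libraries was not tested.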

How the data were processed

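Per the labels, mRNA libraries were made from RNA of HepG2 cells and the files refer to GRCh38. The authors deposited 1 table of raw counts per gene for all 6 libraries, without normalization; the aligner, the counting program, its strand setting and the annotation release are not given in the sources used here. The 5 lines with the broken entry of ANK2 were left out. Groups and replicate numbers came from the sample titles. Counts were analysed with edgeR 4.0.16 in R 4.3.3 (filterByExpr with minimum count 10 and minimum total 15, TMM factors from 0.98 to 1.01, glmQLFit and glmQLFTest, group alone, Benjamini-Hochberg over 19111 genes), and the pipeline was tested on simulated data. TPM used the deposited exonic length. The exact permutation test used log2(CPM + 0.1). Total counts from 28756765 to 57199396 set the precision. Every pair of libraries of a group differed beyond what counting alone gives (from 3.47 to 13.87 for chi-square over its degrees of freedom, on halved counts).

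The study's methods do not name its RNA-seq test. Named are all 10 genes of the set, VEZF1, the 3 most abundant genes per length of each of 8 lists with any at an unadjusted p under 0.05, and the 5 genes most like the set's profile. Other genes were named after their values were seen, as family members, overlaps, markers or calls of an alternative. The genes and lists were chosen with earlier results of these data known. Alternatives were other scalings, filters, DESeq2 1.42.0, limma 3.58.1 (voom), a replicate block, mitochondrial genes left out and each library left out, with halved counts and replicate 3 of both groups left out added after the data were seen. Of the list symbols, 4 older ones were matched through RefSeq synonyms (CCN1, CCN2, MRTFA and MRTFB). The value of 1 marker gene is not reported here. Figures were drawn with matplotlib 3.10.9.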

Additional observations from a re-analysis of the deposited data

How the results depend on the processing

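The count of genes at an adjusted p under 0.05 was 0 in edgeR (408 at an unadjusted p under 0.05) and moved to 16 without the filter on low counts, to 3 with DESeq2's test to 6 with the replicate block and to 4 without replicate 3 of both groups, while it was 0 with each library left out; the causes were not tested. At an unadjusted p under 0.05 these settings gave 896, 219, 825 and 833 genes, and leaving out single libraries gave 292 to 973. No immediate early gene had an adjusted p under 0.05 in any setting. With single libraries left out, between 0 and 1 immediate early genes had an unadjusted p under 0.05 (EGR1 without replicate 2 of VEZF1-2A) and between 0 and 2 had groups that did not overlap, beside 13.4% to 21.4% of all genes tested. These were FOS without replicate 1 of either group, EGR1 without replicate 2 of either group, IER2 without replicate 2 of VEZF1-WT, JUNB without replicate 1 of VEZF1-2A and FOSB without replicate 2 of VEZF1-2A. Their median log2 fold change ran from -0.14 to 0.026 with a library left out, and it was above 0 without replicate 3 of VEZF1-WT (0.016) or replicate 1 of VEZF1-2A (0.026).

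With each library left out, the log2 fold change changed sign for JUN (-0.13 to 0.040), KLF6 (-0.039 to 0.050), FOSL1 (-0.21 to 0.10), IER2 (-0.14 to 0.014), FOSB (-0.024 to 0.40) and DUSP1 (-0.017 to 0.12), and kept it for FOS (0.30 to 0.65), EGR1 (-0.29 to -0.13), IER3 (-0.15 to -0.04) and JUNB (-0.26 to -0.10). Without replicate 3 of both groups KLF6 (-0.006) and FOSB (-0.076) changed sign. All other settings kept the sign of each of the 10 genes tested in them. FOS was not tested at 1 CPM in 3 libraries or with halved counts, and FOSB not at 1 CPM in 3 libraries.

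Of the 8 lists, 2 genes had an unadjusted p under 0.05 without the filter (ERRFI1 and JDP2, beside 2.31% of all genes tested), 5 with the replicate block (ERRFI1, SPRY4, ZFP36L1, HSPH1 and JDP2, beside 4.32%), 3 without replicate 3 of both groups (ERRFI1, ZFP36L1 and HSP90AA1, beside 4.3%), and between 0 and 6 with a library left out, the most without replicate 3 of VEZF1-2A (ERRFI1, SPRY4, ZFP36L1, NR4A1, CDK1 and TOP2A, beside 4.89%). Their adjusted p was at least 0.748, that of ERRFI1 with the block (unadjusted p = 0.0033, log2 fold change -0.18). The labels do not say that a number pairs libraries. Same-numbered libraries deviated together with r of 0.082, 0.151 and 0.382 over genes, the last the highest of any pair across the groups. Replicate 2 of VEZF1-WT correlated slightly better with replicate 1 of VEZF1-2A (r = 0.181). The block was not used in the main fit, so a shift shared by same-numbered libraries counts there as spread. In edgeR with the block, the smallest unadjusted p of the set were 0.0633 (EGR1) and 0.0862 (IER3). Depth limits FOS and FOSB most, at 10 to 56 counts per library.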
